A study of Mus musculus with 14 samples.

Results

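The collagen genes of the mouse were followed through single-nucleus RNA sequencing of retina and of brain vascular fragments in which endothelial cells (ECs) had lost the TGF-beta receptor gene Tgfbr1. A gene was counted as a collagen gene when its symbol read Col, a number, a and a further number in the files of both tissues. The rule took 44 genes of 28929 with a symbol in either tissue's files, and all 44 were among the 25915 symbols present in both. By the class of protein they encode, 11 were fibrillar, 6 were type IV chains, 6 were type VI chains, 9 were fibril-associated, 4 were transmembrane, 3 were short-chain network collagens, 2 were multiplexins and 3 were placed together as anchoring and other.

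Collagens are triple helices of 3 chains, and the classes differ in what the helices build. Fibrillar chains form the cross-striated fibrils of connective tissue, fibril-associated collagens coat those fibrils, type VI chains form beaded filaments, and type IV chains form the sheet of every basement membrane. In brain and retina the densest basement membranes surround blood vessels, where ECs and mural cells deposit type IV collagen and where the multiplexins, types XV and XVIII, attach to the membrane's outer face, while fibrillar collagen is largely a product of the fibroblasts of the meninges and of larger vessels.

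The study asked how ECs and the cells around them change when TGF-beta signaling is lost from the endothelium. The knockout mice (CKO) were Cdh5CreER;Tgfbr1^CKO/- animals, with 1 conditional and 1 null allele of Tgfbr1 and a tamoxifen-dependent Cre driven by the endothelial Cdh5 promoter, and 4-hydroxytamoxifen was given between P3 and P5. Controls were called wild type in the labels and phenotypically wild type in the study's text. Elsewhere that text names Cdh5CreER;Tgfbr1^CKO/+ among its usual control genotypes, but it did not give the genotype of the sequenced controls or say whether they received the drug. The methods placed collection at P14, whereas the labels called the mice young adult, and no strain was named. Retina gave 1 control library and 11 CKO libraries. Brain gave 1 control and 1 CKO library, each from vascular fragments of 2 brains pooled after centrifugation through Ficoll. The labels numbered the CKO retinas as repeats and did not state that they came from separate animals. The study's reporting checklist describes its data in general as biological replicates, without naming these libraries. The p-values below measure the spread between libraries, which may be technical.

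The control retina held 11513 nuclei and 30989702 UMIs (unique molecular identifiers, 1 per captured RNA molecule). The CKO retinas held 104 to 18862 nuclei and 90449 to 55803724 UMIs, with a median of 16443337. The control brain held 16649 nuclei and 49798325 UMIs, and the CKO brain 14675 nuclei and 31033373 UMIs. Retinal CKO 4 stood apart, with 104 nuclei left and only 6 of 11 cell type labels represented, and it entered the retinal fits for immune cells and retinal ganglion cells alone. The study's methods state that curation by hand also took out clusters holding multiple nuclei of CKO 4 and CKO 5. By the deposited metadata, batch 1 held the control retina and CKO 1 to 3, batch 2 held CKO 4 and 5, and batch 3 held CKO 6 to 11. CKO 8 to 11 were made with version 5 of the kit and all others with version 4. Among 77676 retinal nuclei 10 barcodes occurred in more than 1 library, and among 31324 brain nuclei 2 did.

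Levels are given as CPM, a gene's share of all UMIs in a label and library times 1000000. Tgfbr1 itself was at 69.1 CPM in control brain ECs, from 401 UMIs, and at 62.9 CPM in CKO brain ECs, from 431. Over all retinal nuclei it stood at 89.0 CPM in the control and at 71.4 to 365 CPM in the CKO libraries. The highest was CKO 4, from 33 UMIs, and the other 10 CKO libraries were at 71.4 to 87.0 CPM, all below the control. Counts taken at the 3′ end of a transcript do not tell an allele without its deleted exon from an intact one, so these values checked nothing about the deletion.

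Each label was compared with lists of marker genes. The lists read in the brain held none for neurons, so the neuron labels there were not checked against markers of their own. Brain ECs had 12243 CPM of the EC list in the control and 9752 CPM in the CKO, their highest list in both libraries. They also carried 8400 and 7157 CPM of the pericyte list, led by Rgs5 at 5631 and 4831 CPM. The brain label "glia" went against its markers: its highest list was that of fibroblasts, with all 10 of 10 genes detected and 8663 CPM in the control and 8706 CPM in the CKO, against 2538 and 2921 CPM of the astrocyte list. It is called the Bnc2-high label below, after its leading marker, which stood at 3604 and 5078 CPM. The label Glut_20, named for glutamatergic neurons, had the oligodendrocyte list at 5678 and 4765 CPM, in 97.6% and 89.4% of its nuclei. It also had Ttr, a choroid plexus gene, at 2835 and 2354 CPM. The microglia label held 11 nuclei in the CKO. There its own list, at 1503 CPM, lay below the list of oligodendrocyte precursors at 2733 CPM and the astrocyte list at 1845 CPM. The vascular smooth muscle cell label (vSMCs) had more of the pericyte list, 6647 and 6352 CPM, than of its own, 5221 and 4734 CPM. It also had the EC list at 4890 and 5055 CPM, in the CKO above its own. The pericyte label was left with 22 nuclei in the CKO, against 201 in the control. In the retina every label ranked highest on its own list except the glycinergic amacrine cells, which came after the GABAergic ones on the amacrine list that they share. The horizontal cells led only narrowly, at a median of 1282 CPM against 1268 CPM in rod bipolar cells. None of the 11 retinal labels was for ECs or pericytes, so the retinal values describe neurons, glia and immune cells.

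In the control brain, collagen transcripts were most concentrated in the vascular and fibroblast-like labels. Summed over the 44 genes they made up 1.04% of all UMIs in the Bnc2-high label (10449.9 CPM), with 6516 CPM in pericytes, 6300 CPM in vSMCs, 4542 CPM in ECs and 3621 CPM in the choroid plexus label CP_8, and Glut_14, a label of glutamatergic neurons, came next at 1550 CPM. The same 5 labels led in the CKO brain, at 9864, 6947, 8694, 4799 and 3730 CPM. UMI numbers depend on transcript length and sequence, so levels are compared here between cell types within a gene. Where the genes with most UMIs in a retinal label are named below, the order is of UMIs and not of transcript levels.

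By the label in which each gene was highest in the control brain, 18 genes belonged to the Bnc2-high label and stood beyond counting error of the next label in 15 of those cases. They were the fibrillar Col1a1, Col1a2, Col3a1 and Col5a2, the type VI chains Col6a1, Col6a2 and Col6a3, the type IV chains Col4a5 and Col4a6, the fibril-associated Col9a2, Col12a1, Col16a1 and Col22a1, the transmembrane Col13a1, Col23a1 and Col25a1, the multiplexin Col15a1, and Col26a1. Pericytes were highest for Col4a1, Col4a2, Col7a1, which anchors epithelia to the tissue beneath, and Col28a1, all separate except Col7a1. The vSMCs were highest for Col6a6, Col10a1, Col14a1 and Col18a1, though none of these 4 was separate from the next label. CP_8 was highest, and separate, for Col4a3, Col4a4, Col8a1 and Col9a3, and CP_6, a label high in genes of ciliated cells, was highest for Col5a3 and Col6a5, both separate, and for Col8a2, which was not. The remaining genes peaked in neurons or glia: Col5a1 and Col24a1 in Glut_11, Col19a1 in Glut_14, Col17a1 in Glut_5, Col6a4 in GABA_9, Col2a1, Col11a1 and Col11a2 in oligodendrocyte precursors (OPCs), Col9a1 and Col20a1 in oligodendrocytes, and Col27a1 in microglia. Among these only Col19a1 and Col20a1 were separate from the next label. Col19a1, a fibril-associated collagen found at some synapses, was at 720 CPM in control Glut_14 nuclei and 956 CPM in CKO. Across the libraries 25 of the 44 genes kept the same highest label, and of 14 genes with a separate highest label in both, 11 kept it.

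**Figure D1:**
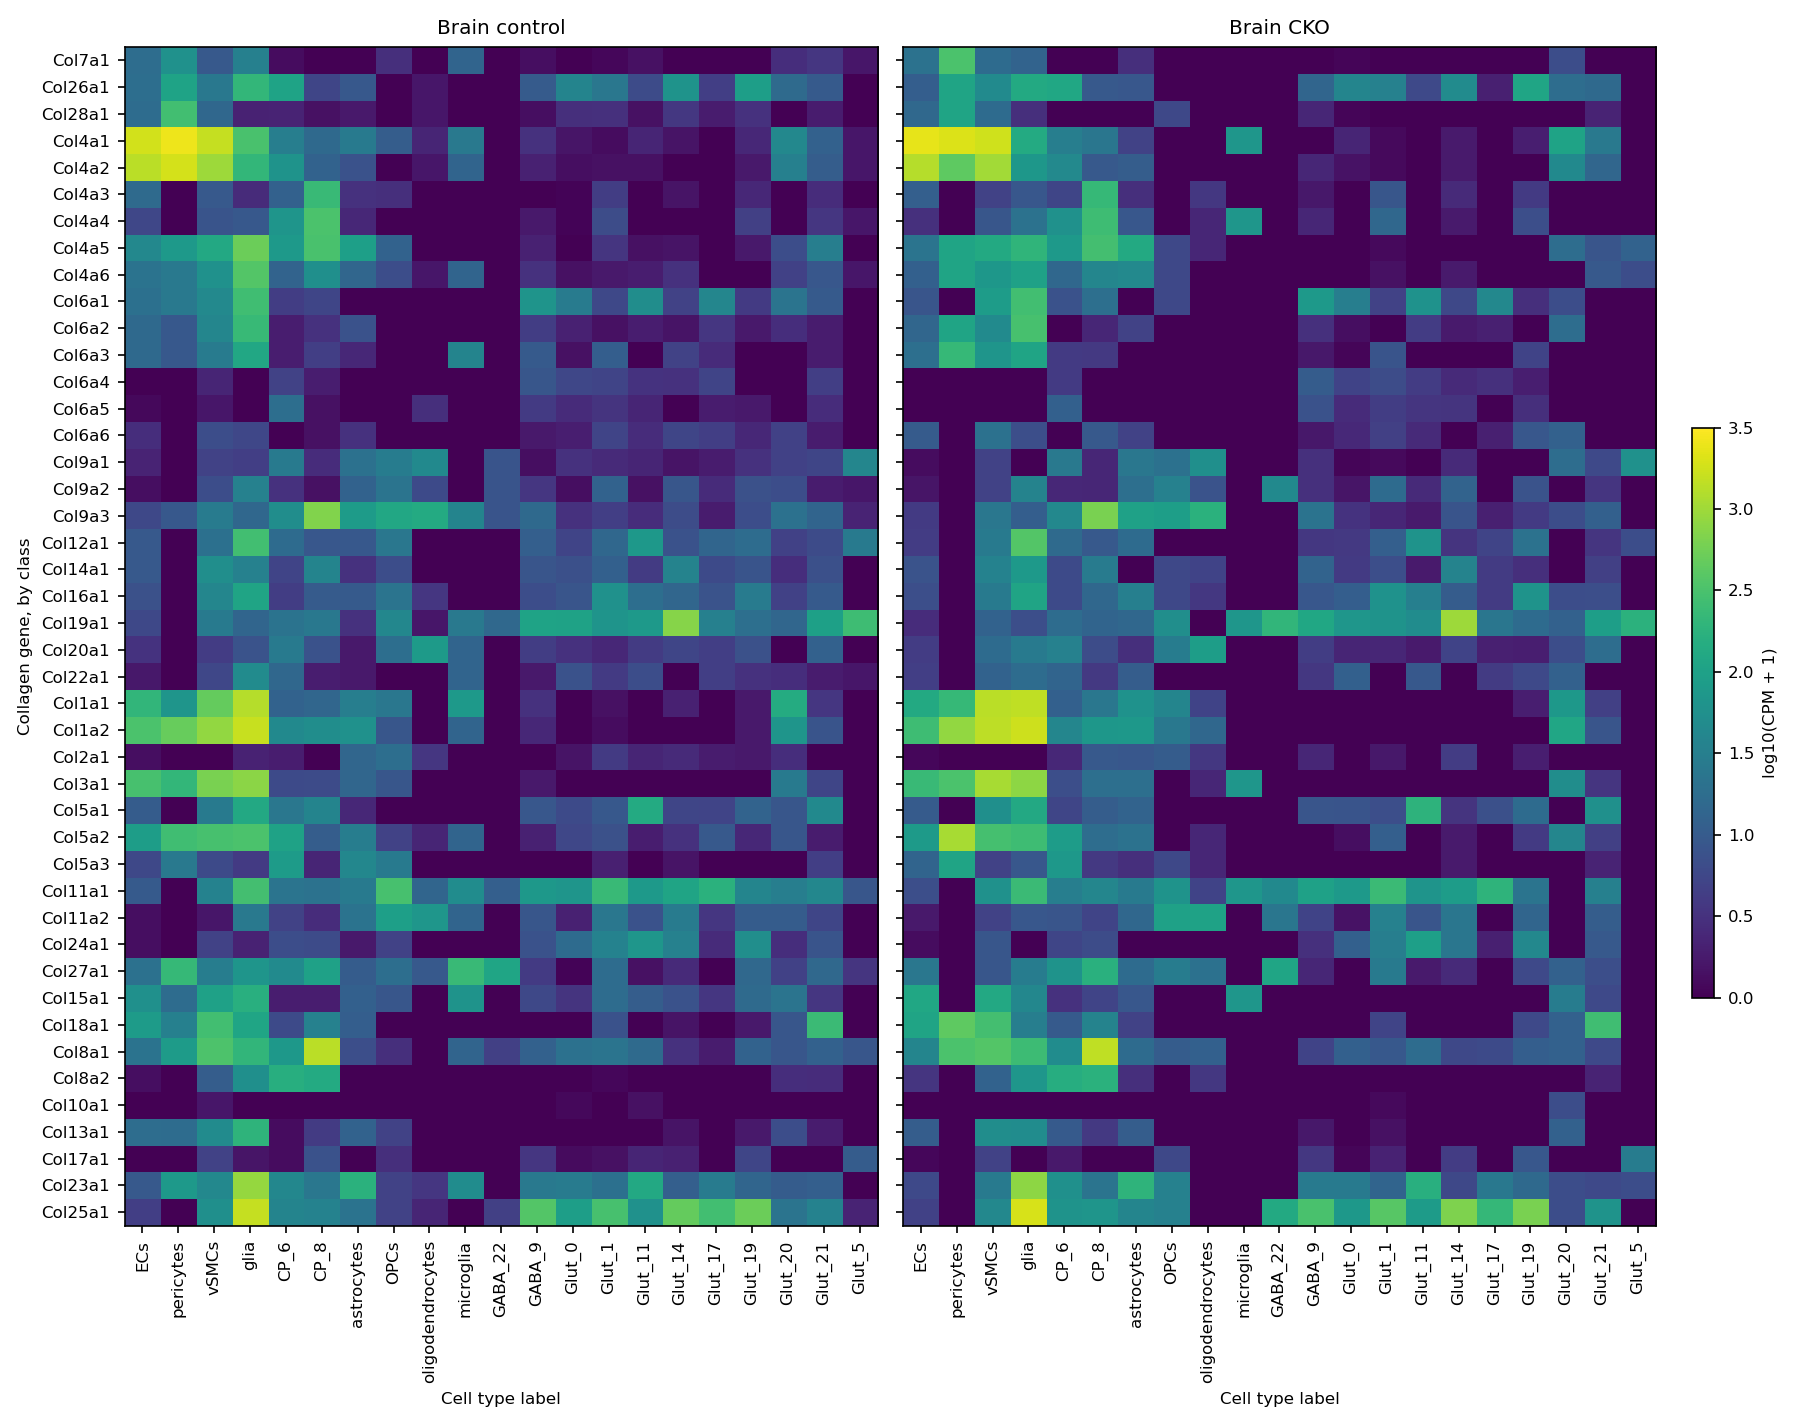
Heat maps of the 44 collagen genes (by class, vertical) in the 21 brain cell type labels (horizontal), control brain on the left and CKO brain on the right; color is log10 of CPM + 1. Col4a1 and Col4a2 are bright in ECs, pericytes and vSMCs, the fibrillar chains Col1a1, Col1a2 and Col3a1 in vSMCs and the label glia, and Col8a1 and Col9a3 in CP_8.

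The 44 genes lay on 15 chromosomes, with gene lengths from 7.11 to 468 kb and a median of 114 kb (GENCODE, GRCm39), and 8 pairs lay within 100 kb of each other. In 3 of those pairs the genes stood head to head, and these were the 3 type IV pairs: Col4a1 with Col4a2, Col4a3 with Col4a4, and Col4a5 with Col4a6, with annotated starts 317, 103 and 1282 bases apart. Col4a1 and Col4a2, the chains of every vascular basement membrane, were both highest in pericytes in the control brain and in ECs in the CKO brain, where Col4a1 was not separate from pericytes. Col4a3 and Col4a4, which with Col4a5 form the network of the kidney's filter, were both highest in CP_8 in either library, though in the CKO Col4a4 was not separate from the next label. Col4a5 and Col4a6 were both highest in the Bnc2-high label in the control brain, whereas in the CKO brain Col4a5 was highest in CP_8, at 288 CPM, and Col4a6 in pericytes, from 1 UMI. In the retina Col4a1 and Col4a2 shared a highest label and the other pairs did not: Col4a3 was highest in rods, Col4a4 in horizontal cells, Col4a5 in Müller glia and Col4a6 in astrocytes, none of them separate.

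Col4a1 and Col4a2 fell together in the Bnc2-high label and stood apart over all ECs, as given below. In ECs without mural markers Col4a2 was instead higher with scaling by the total, though not in every such set with TMM scaling. The promoters of this pair are shown, from RefSeq on build GRCm38.p6, from 250 bases before to 50 after the start. RefSeq held promoters for 35 of the 44 genes. On either strand, the CCAAT box (letters CCAAT) was in 13 of the 35, against 37.4% of all 32851 promoters of that length, the GC box (GGGCGG) was in 22, against 35.7%, and the palindrome GTCTAGAC, to which SMAD proteins of the TGF-beta pathway can bind, was in 0, against 0.213%. The RefSeq starts of Col4a1 (chr8:11312777-11313076, minus strand) and Col4a2 (chr8:11312555-11312854, plus strand) lay 21 bases apart, so the windows share 78 bases read in opposite directions. Capitals mark CCAAT and GGGCGG or their reverse complements ATTGG and CCGCCC, which do not overlap each other, and a match in letters is no sign of a bound site.
Col4a1: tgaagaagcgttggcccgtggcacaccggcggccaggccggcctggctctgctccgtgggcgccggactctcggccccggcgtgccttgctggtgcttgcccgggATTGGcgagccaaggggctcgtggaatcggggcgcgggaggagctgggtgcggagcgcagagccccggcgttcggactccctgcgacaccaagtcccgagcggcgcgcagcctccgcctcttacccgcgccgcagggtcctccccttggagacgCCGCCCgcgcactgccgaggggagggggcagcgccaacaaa
Col4a2: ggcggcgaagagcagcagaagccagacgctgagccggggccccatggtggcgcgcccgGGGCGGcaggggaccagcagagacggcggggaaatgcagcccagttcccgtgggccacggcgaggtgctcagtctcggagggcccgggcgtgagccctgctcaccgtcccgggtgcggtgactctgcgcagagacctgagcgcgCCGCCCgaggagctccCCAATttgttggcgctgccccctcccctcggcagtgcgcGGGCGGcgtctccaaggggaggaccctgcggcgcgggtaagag

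In the brain each gene's CPM was compared between the single CKO and the single control library within each label. With 1 library a group no test was possible, and each ratio comes with a 95% exact conditional binomial interval that covers counting error only. A gene was counted as changed when it had at least 50 UMIs over both libraries and its ratio passed 2-fold. Over 21 labels, 215 pairs of collagen gene and label could be read, in 19 labels, and 31 were past 2-fold, 10 of them higher and 21 lower in CKO, against 9.81% of all gene and label pairs. These 31 pairs were spread over 11 labels. Scaling by TMM, which trims extreme genes, in place of the total would lower every log2 ratio by 0.10 in ECs, 0.22 in the Bnc2-high label, 0.17 in vSMCs, 1.45 in pericytes, 0.35 in OPCs, 0.24 in astrocytes and 0.12 in CP_8. Every share of all genes given for the brain is for scaling by the total, so counts with TMM stand without one.

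Over all brain ECs the major chains of the vascular basement membrane were little altered, the multiplexin Col15a1 and 2 low genes rose, and 2 genes fell. Col4a1 stood at 1812 CPM in the control and 2314 CPM in the CKO, a ratio of 1.28 (interval 1.25 to 1.31), and its partner Col4a2 at 1374 and 1277 CPM, a ratio of 0.929 (0.901 to 0.958). The pair thus stood on opposite sides of equal levels over all ECs, each by a small amount outside its counting interval. In the smaller sets of ECs without pericyte and vSMC markers, read below, Col4a2 was instead higher with scaling by the total. Its log2 ratio was 1.10 with no mural marker, 0.26 with Rgs5 allowed and 0.31 there without fibroblast UMIs. TMM scaling would lower these by 0.77, 0.49 and 0.48, which takes the last 2 below 0. Col4a5 was at 42.1 and 21.2 CPM (ratio 0.503, 0.407 to 0.62) and Col4a6 at 20.9 and 10.7 CPM (0.511, 0.377 to 0.689), both just short of the 2-fold mark and past it with TMM scaling. Col4a3 was at 15.0 and 10.5 CPM, and Col4a4 had too few UMIs to be read, 26 and 14.

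Of 28 collagen genes read in ECs, 5 were past 2-fold, against 13.4% of all 11351 genes. The 3 that rose, against 9.45% of all genes, were Col15a1, Col5a3 and Col6a6. Col15a1, whose protein bridges basement membrane and fibrils, went from 56.5 to 120 CPM (328 and 823 UMIs), a ratio of 2.12 (1.87 to 2.42). Col5a3, a minor fibrillar chain, went from 4.83 to 12.6 CPM, a ratio of 2.60 (1.68 to 4.14), and Col6a6, a type VI chain, from 1.90 to 9.05 CPM, a ratio of 4.77 (2.49 to 10.1). The 2 that fell, against 3.9% of all genes, were the type VI chain Col6a1, from 18.4 to 7.30 CPM, a ratio of 0.396 (0.277 to 0.559), and the fibril-associated Col12a1, from 8.62 to 3.21 CPM, a ratio of 0.373 (0.215 to 0.627). The median log2 ratio of the 28 genes was -0.19, against 0.14 over all genes read. The chains of type I and type III fibrils stood lower without reaching 2-fold: Col1a1 at 197 and 131 CPM, Col1a2 at 322 and 256 CPM, and Col3a1 at 298 and 237 CPM. With TMM scaling Col15a1 came to a log2 ratio of 0.98, just under the mark, and the counts became 2 higher and 4 lower, with Col4a5 and Col4a6 added. The shares of all genes above are for scaling by the total. TMM takes the median over all genes from 0.14 to 0.04.

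The fibroblast list also differed between the EC libraries. It had all 10 of its genes detected in both libraries and summed to 261 CPM in control ECs, led by Igfbp2, and to 150 CPM in CKO ECs, led by Tbx18, and 16.5% and 13.8% of EC nuclei carried at least 1 of its UMIs. The choroid plexus list, all 5 genes detected, stood at 1163 and 557 CPM in ECs, led by Ttr at 1113 and 472 CPM, and at 874 and 412 CPM in the ECs without fibroblast UMIs read below. Its part in the EC values was not tested. The fibroblast list does not mark 1 cell type alone, since Tbx18 was at 427 and 543 CPM in pericytes, against 346 and 188 CPM in the Bnc2-high label. The ECs were therefore read again without those nuclei, which left 2066 control and 2537 CKO nuclei with 0 fibroblast UMIs. In them 6 of 18 collagen genes were past 2-fold, against 19.8% of all genes, all 6 higher, against 16.3%, and 0 lower, against 3.5%, and the median log2 ratio was 0.43, against 0.23 over all genes.

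Col15a1 gave the widest gap in these nuclei, 4.46 CPM from 17 UMIs in the control and 110 CPM from 573 UMIs in the CKO, a ratio of 24.8 (15.3 to 42.9). In the 409 control and 407 CKO EC nuclei with fibroblast UMIs it was at 157 and 150 CPM, a ratio of 0.959 (0.809 to 1.14). In the control, 311 of the 328 Col15a1 UMIs of ECs were thus in nuclei that also held UMIs of the fibroblast list, against 250 of 823 in the CKO. Of all EC UMIs those nuclei held 1986551 of 5801552 in the control and 1664319 of 6851854 in the CKO. They were deeper than the rest, at medians of 3363 and 2917 UMIs. Of the nuclei without fibroblast UMIs, 15 of 2066 in the control (0.726%) and 379 of 2537 in the CKO (14.9%) had a Col15a1 UMI, at median depths of 1131 and 1319 UMIs. In oligodendrocytes, which should lack the gene, 0 of 603 and 0 of 640 had one, which allows up to 0.61% and 0.575%, at median depths of 2328 and 954.5 UMIs. In astrocytes 7 of 942 (0.743%) and 4 of 644 (0.621%) had one, at 1150.5 and 578.5 UMIs. Thinned to 500 UMIs a nucleus, which left out 405 control and 330 CKO nuclei as too shallow, the EC shares were 0.361% (interval 0.133 to 0.785) and 5.48% (4.57 to 6.52), and those of astrocytes 0.224% (0.0272 to 0.808) and 0% (up to 0.839). Col15a1 was also at 2 and 56 UMIs, 2.82 and 150 CPM, in the 825 and 437 ECs free of every pericyte and vSMC marker except Rgs5. Few genes could be read in such nuclei: with Rgs5 allowed 1 of 5 collagen genes was past 2-fold, against 23.9% of all genes, without fibroblast UMIs as well 1 of 3, against 24.7%, and with no mural marker at all 2 of 2, against 38.4%.

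Col18a1, the second multiplexin and the source of endostatin, was at 35.4 and 76.7 CPM in the ECs without fibroblast UMIs, a ratio of 2.17 (1.78 to 2.66), against 1.32 (1.17 to 1.48) over all ECs and 0.802 (0.304 to 1.92) in those free of mural markers except Rgs5. Col8a1, a short-chain collagen of vessel walls, was at 9.70 and 31.2 CPM (ratio 3.22, 2.24 to 4.74), against 1.87 over all ECs. Col6a3 was at 3.41 and 12.3 CPM, Col5a3 at 3.93 and 12.7 CPM, and Col6a6 at 1.83 and 9.83 CPM. All 5 were low in the control, and their ratios ran from 2.17 for Col18a1 to 5.36 for Col6a6. Col4a1, at 1755 and 2332 CPM, and Col4a2, at 1408 and 1317 CPM, stayed near their values over all ECs. Col4a3 was at 18.3 and 10.8 CPM, Col4a5 came down to 7.08 and 6.94 CPM, a ratio of 0.981 (0.579 to 1.68), and Col4a6 had 9 and 18 UMIs, too few to be read. Col3a1 was at 66.1 and 128 CPM, a ratio of 1.94 just under the mark, and Col1a1 and Col1a2 came to log2 ratios of 0.32 and 0.45, so that all 3 chains stood higher here and lower over all ECs. The TMM shift in these nuclei was 0.20, and Col18a1 then came to a log2 ratio of 0.92, which left 5 genes past 2-fold higher and 1, Col28a1, lower.

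**Figure D2:**
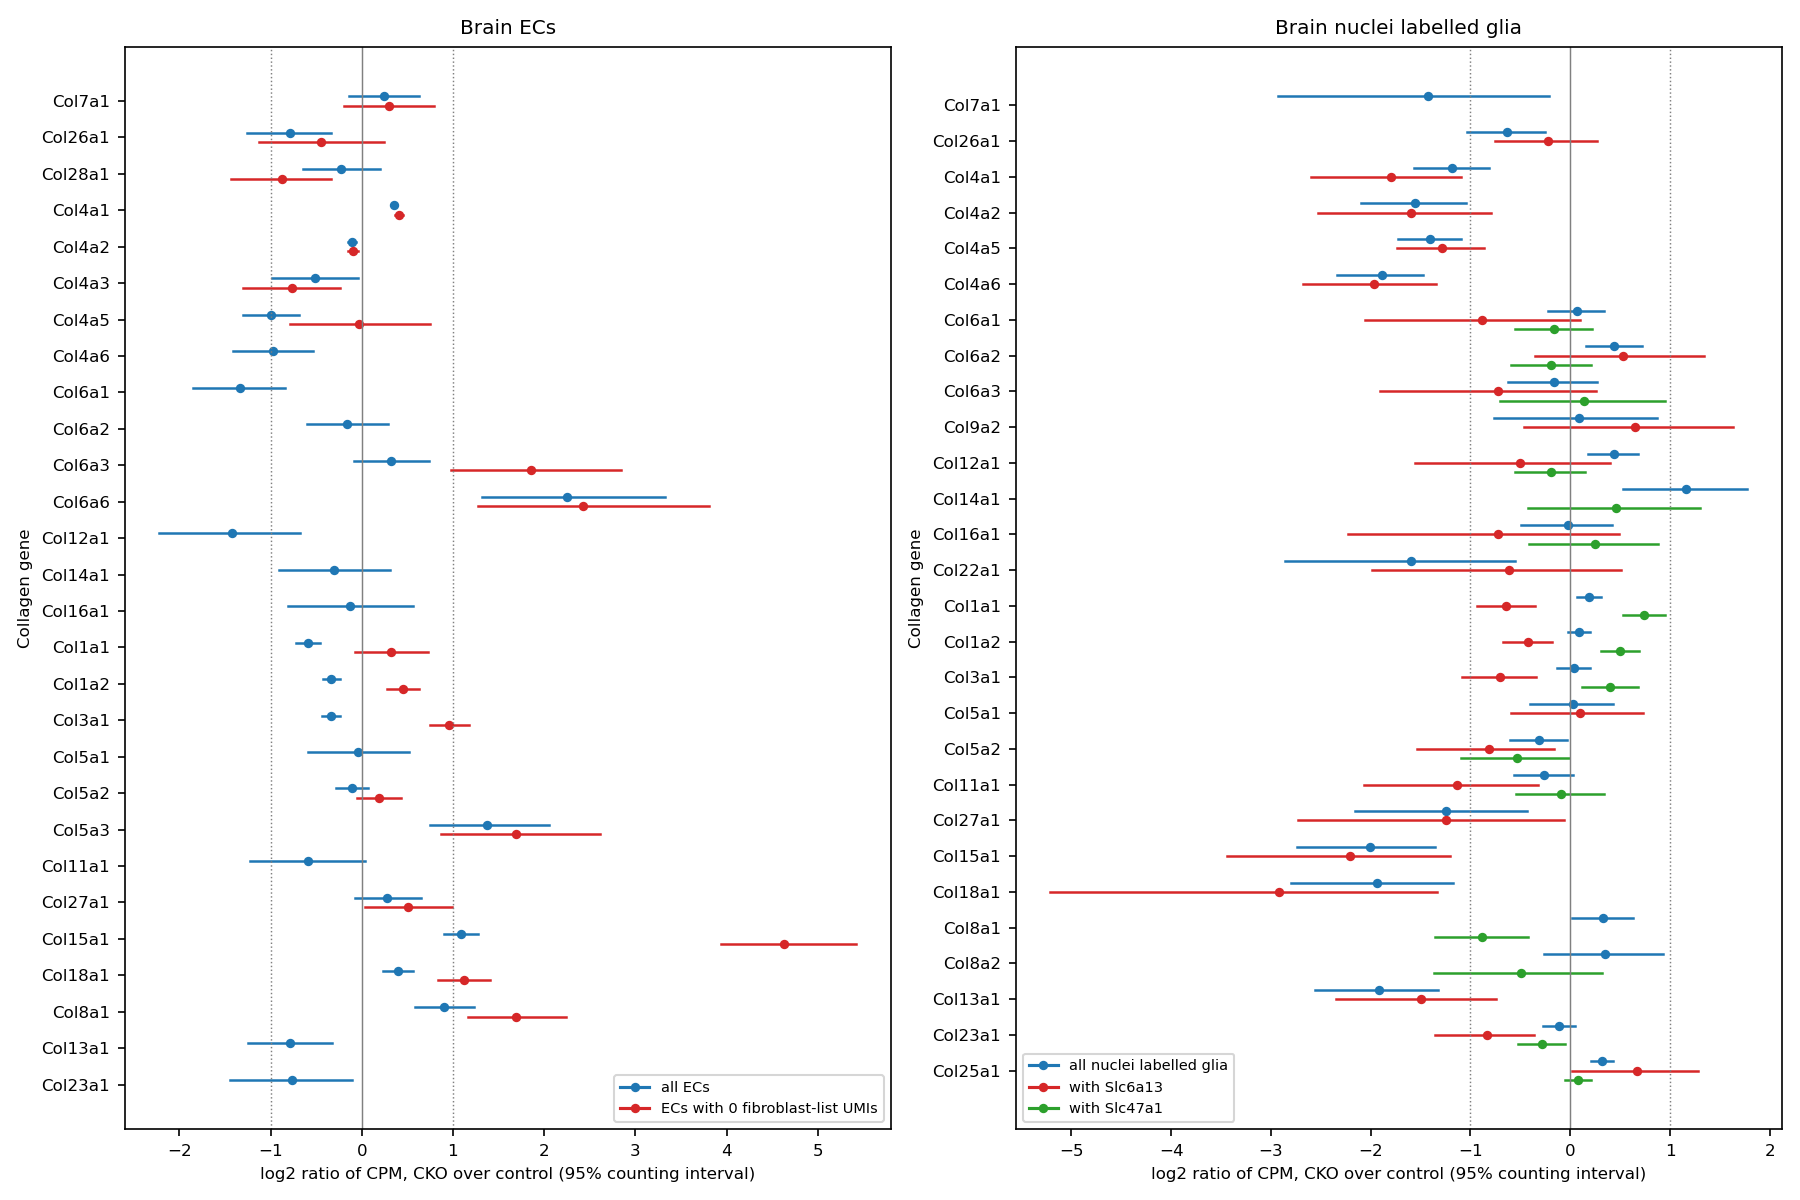
Log2 ratio of CPM, CKO over control, for each collagen gene with at least 50 UMIs in brain ECs (left) and in the label glia (right); points are ratios, bars 95% counting intervals and dotted lines the 2-fold marks. Col15a1 lies at 1.09 in all ECs and at 4.63 in ECs with 0 fibroblast UMIs, and the type IV chains of the label glia lie below -1 in all its nuclei and in those with Slc6a13.

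In the Bnc2-high label the type IV chains that could be read and both multiplexins fell, while Col1a1, Col1a2 and Col3a1 did not pass 2-fold. This label had 1227 control and 419 CKO nuclei. Of 28 collagen genes read, 11 were past 2-fold, against 14.7% of all 6480 genes, with 10 lower, against 8.6%, and 1 higher, against 6.08%. All 4 type IV chains that could be read were lower. Col4a1 went from 309 to 136 CPM, a ratio of 0.44 (0.337 to 0.568), and Col4a2 from 205 to 70.1 CPM, a ratio of 0.341 (0.234 to 0.484). Col4a5 went from 508 to 192 CPM, a ratio of 0.378 (0.303 to 0.467), and Col4a6 from 364 to 98.2 CPM, a ratio of 0.27 (0.197 to 0.361). Both multiplexins fell as well, Col15a1 from 161 to 40.1 CPM and Col18a1 from 115 to 30.0 CPM, with ratios of 0.249 (0.15 to 0.392) and 0.262 (0.144 to 0.442). The other 4 were the transmembrane Col13a1, from 189 to 50.1 CPM, the fibril-associated Col22a1, from 48.5 to 16.0 CPM, the anchoring Col7a1, with a ratio of 0.372 (0.131 to 0.861), and the fibrillar Col27a1, from 66.4 to 28.0 CPM.

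The major fibrillar chains were nearly level: Col1a1 stood at 1297 and 1482 CPM, Col1a2 at 1602 and 1703 CPM, and Col3a1 at 777 and 797 CPM. Of the 7 fibrillar genes read, Col27a1 was the 1 past 2-fold, and 0 of 3 type VI genes were. The gene that rose was Col14a1, a fibril-associated collagen, from 34.1 to 76.1 CPM, a ratio of 2.24 (1.45 to 3.42). With TMM scaling, which lowers every ratio in this label, it no longer passed 2-fold. Among the 512 control and 127 CKO nuclei that held at least 1000 UMIs, 6 of 25 were past 2-fold, against 10.1% of all genes, and all 6, Col4a2, Col4a5, Col4a6, Col13a1, Col15a1 and Col18a1, were lower, against 5.53%. There Col4a1 had a ratio of 0.58 (0.42 to 0.786). The median log2 ratio over the 28 genes was -0.14, against 0.05 over all genes read.

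Levels of meningeal fibroblast markers in this label differed between the libraries. Whether its composition did so was not tested. Slc6a13, a GABA transporter of leptomeningeal fibroblasts, was at 906 CPM in the control and 377 CPM in the CKO, and Slc47a1, an exporter found in other meningeal fibroblasts, at 469 and 835 CPM. Among nuclei with Slc6a13 and no Slc47a1, 577 in the control and 87 in the CKO, 9 of 24 collagen genes were past 2-fold, all lower, against 21.9% of all genes. With the TMM shift of 0.58 in these nuclei 19 would be, but that shift lowers every gene alike. It takes the median log2 ratio over all genes in these nuclei from -0.07 to -0.65. There Col4a1 was at 481 and 138 CPM, Col4a2 at 319 and 106 CPM, Col4a5 at 951 and 390 CPM, Col4a6 at 669 and 171 CPM, and Col15a1 at 301 and 65.1 CPM, while Col1a1, Col1a2 and Col3a1 had log2 ratios of -0.64, -0.42 and -0.71. Among nuclei with Slc47a1 and no Slc6a13, 236 and 158, 0 of 15 collagen genes were past 2-fold, against 11.3% of all genes, and Col15a1 had 0 UMIs in either library. Among nuclei with neither, 393 and 168, 1 of 22 was, Col13a1, from 148 to 48.8 CPM, a ratio of 0.33 (0.128 to 0.717), against 11.2% of all genes. There Col4a1 was at 274 and 258 CPM, Col4a2 at 174 and 90.6 CPM, a ratio of 0.522 (0.267 to 0.944), Col4a5 at 304 and 237 CPM, Col4a6 at 276 and 188 CPM, Col15a1 at 116 and 83.6 CPM and Col18a1 at 105 and 83.6 CPM. With the TMM shift of 0.22 in these nuclei Col4a2 came to a log2 ratio of -1.16 and 2 genes were past 2-fold. Whether the 3 sets of nuclei differed was not tested. In the Slc47a1 nuclei the type IV chains and multiplexins had fewer than 50 UMIs, at which Col4a1, Col4a2 and Col4a5 gave log2 ratios of 0.07, 0.10 and 0.18. How far the numbers of these nuclei set the label's values was not tested. The EC list in the label was at 877 and 537 CPM and the pericyte list at 1206 and 801 CPM, with Kcnj8 at 0 in the CKO. Without nuclei holding EC or mural markers, 4 of 21 genes were past 2-fold, Col4a5, Col4a6, Col13a1 and Col15a1, all lower, which was no more than the 19.1% of all genes there.

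In vSMCs, with 449 control and 103 CKO nuclei, 3 of 22 collagen genes were past 2-fold, against 8.11% of all genes, and all 3, Col1a1, Col6a3 and Col5a1, were higher, against 2.25% of all genes higher and 5.86% lower. Col1a1, a chain of type I collagen, went from 470 to 1359 CPM, a ratio of 2.89 (2.54 to 3.29). Col6a3 went from 27.2 to 65.8 CPM, a ratio of 2.42 (1.29 to 4.35), and Col5a1 from 26.5 to 54.2 CPM, a ratio of 2.04 (1.03 to 3.83). Col1a2, the partner chain of Col1a1, was at 850 and 1413 CPM, a ratio of 1.66 (1.48 to 1.87), and Col3a1 at 627 and 1107 CPM, a ratio of 1.77 (1.54 to 2.02). Col4a1 was at 1563 and 1784 CPM and Col4a2 at 974 and 1026 CPM. With TMM scaling Col5a1 came to a log2 ratio of 0.86 and no longer passed. The fibroblast list in vSMCs was at 785 CPM in the control and 1018 CPM in the CKO, and the choroid plexus list at 4840 and 2555 CPM, led by Ttr at 4395 and 2009 CPM. The EC list there was at 4890 and 5055 CPM and the pericyte list at 6647 and 6352 CPM. The part of these lists in the vSMC values was not tested. In pericytes only 3 collagen genes could be read, and 1, Col4a2, was past 2-fold, against 35.5% of all genes there. It went from 1855 CPM to 434 CPM, the latter from 4 UMIs, a ratio of 0.234 (0.0632 to 0.608), while Col4a1 was at 2585 and 2062 CPM, a ratio of 0.798 (0.474 to 1.27), and past 2-fold lower only with TMM scaling. The pericyte list in this label went from 30079 to 16390 CPM. The EC list there went from 1707 to 2822 CPM, led by Flt1 at 673 and 2496 CPM. The part of these shifts in the pericyte values was not tested.

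Of the 31 pairs past 2-fold, 11 lay outside the vascular and fibroblast-like labels, over 7 labels. Col5a1, the chain that sets the width of type I fibrils, fell in both CP labels, from 23.3 to 4.39 CPM in CP_6, where it was 1 of 24 genes read and 4.2% of all genes passed 2-fold, and from 36.5 to 9.78 CPM in CP_8, where it was 1 of 17, against 9.02%. The choroid plexus list in CP_6 went from 3859 to 1892 CPM, led by Ttr at 2838 and 1188 CPM. Its part in the CP_6 values was not tested. The CP_8 count depended on depth, the median being 1721 UMIs a nucleus in the control and 666 in the CKO. Among the 695 control and 152 CKO nuclei of CP_8 that held at least 1000 UMIs, 6 of 16 were past 2-fold, against 13% of all genes: Col11a1 and Col25a1 higher, and Col5a1, Col4a4, Col4a5 and Col4a6 lower, the last 3 at ratios of 0.486 (0.371 to 0.627), 0.412 (0.307 to 0.541) and 0.378 (0.168 to 0.744). Astrocytes had 1 of 7 genes past 2-fold, against 15.3%: Col5a3, with 56 control UMIs and 1 CKO UMI. OPCs had 1 of 3, against 21%: Col11a1, a fibrillar chain of cartilage, which went from 303 to 62.2 CPM, a ratio of 0.205 (0.107 to 0.361). The OPC list in this label went from 14262 to 11913 CPM, the astrocyte list from 455 to 1188 CPM and the oligodendrocyte list from 734 to 1058 CPM. Their part in the OPC values was not tested.

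Among glutamatergic neurons, Glut_0 had 2 of 15 collagen genes past 2-fold, against 8.47%, Glut_1 had 4 of 22, against 8.44%, and Glut_19 had 1 of 5, against 2.47%. In Glut_0, Col14a1 went from 6.20 to 2.90 CPM and Col5a2 from 4.47 to 0.362 CPM, the latter from 3 UMIs. In Glut_1, Col15a1 had 113 control UMIs and 0 CKO UMIs, which a floor of 3 counts places at a ratio of 0.0416 or less, and Col8a1 went from 21.2 to 8.14 CPM. Col4a3 went from 3.32 to 7.69 CPM and Col4a4 from 5.48 to 13.6 CPM, with ratios of 2.32 (1.33 to 4.12) and 2.47 (1.62 to 3.82), so this head-to-head pair rose together in Glut_1. In Glut_19, Col16a1 went from 27.3 to 61.8 CPM. With the 11 neuron labels summed, 7 of 35 genes were past 2-fold, against 8.7% of all genes: Col4a3 and Col4a4 were higher, each with a ratio of 2.19, and Col1a1, Col4a5, Col9a1, Col15a1 and Col28a1 lower. The sum also carries the shift in the labels' shares. Glut_5 had 1858 control and 251 CKO nuclei and held 63 of the 117 control Col9a1 UMIs, with Col9a1 at 39.5 and 57.2 CPM within it, and Glut_20 held 74 of the 89 control Col1a1 UMIs. Without these 2 labels 6 of 31 were past 2-fold, against 7.05%, the same genes except Col1a1. Col15a1 in the sum of 11 labels was at 7.14 and 0.453 CPM, from 225 and 9 UMIs. Markers of vessels and fibroblasts in these neurons were also lower in the CKO. Over the 11 labels the EC list was at 18.8 and 8.75 CPM, the pericyte list at 17.7 and 10.0 CPM and the fibroblast list at 33.8 and 23.7 CPM. In Glut_1 the same lists were at 8.80 and 0.226 CPM, 8.37 and 0.904 CPM, and 84.3 and 51.8 CPM. Their part in the neuronal values that fell was not tested.

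The genes that make, bind and remodel collagen were read from 4 lists with 56 genes. In ECs 44 could be read, 4 rose and 0 fell, against 9.45% and 3.9% of all genes. Itga2, the alpha subunit of a collagen receptor, went from 3.96 to 55.8 CPM, a ratio of 14.1 (9.23 to 22.5). Pxdn, the peroxidase that makes the sulfilimine bond between type IV collagen molecules, went from 56.2 to 153 CPM, a ratio of 2.72. P3h3, a prolyl 3-hydroxylase family member, went from 1.38 to 7.15 CPM, and Cd44, a matrix receptor, from 4.31 to 14.7 CPM. In the ECs without fibroblast UMIs 6 of 34 rose and 1 fell, against 16.3% and 3.5%: Itga2 was at 3.67 and 63.4 CPM, Pxdn at 54.0 and 165 CPM, Cd44 at 2.10 and 15.0 CPM, Bmp1, the protease that trims procollagen, at 6.29 and 26.8 CPM, Tgm2, a crosslinking transglutaminase, at 71.0 and 157 CPM, Timp3, an inhibitor of matrix proteases, at 171 and 394 CPM, and Adgrg1, a receptor for type III collagen, at 37.2 and 15.4 CPM. In the Bnc2-high label 2 of 36 rose, P4ha1 and Colgalt1, against 6.08% of all genes, and 1 fell, the lysyl hydroxylase Plod2, against 8.6%. In vSMCs 1 of 30 rose, Pxdn, and 2 fell, Plod1 and Bmp1, against 8.11% past 2-fold either way. None of these counts stood well above that of all genes. With TMM scaling Colgalt1 in the Bnc2-high label (log2 ratio 0.80) and Tgm2 in the ECs without fibroblast UMIs (0.94) no longer passed, while P4ha2 and Adgrg1 in ECs came to -1.01 and -1.09. Bmp1 in vSMCs had 6 CKO UMIs and an interval of 0.166 to 1.06.

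In the retina, collagen transcripts were concentrated in Müller glia, GABAergic amacrine cells and astrocytes. CPM was not adjusted for batch or kit. The CKO ranges of the retina therefore also carry differences between batches, whereas the control was in batch 1 alone. Summed over the genes, Müller glia had 3597 CPM in the control and 2827, 3131 and 3535 CPM in the CKO (lowest, median and highest library). GABAergic amacrine cells had 1746 CPM in the control and 1519, 1708 and 2069 CPM in the CKO. Astrocytes had 1023 CPM in the control and 1716, 2196 and 4001 CPM in the CKO. The control thus lay above all CKO libraries in Müller glia, inside their range in the amacrine cells and below all of them in astrocytes, where it had only 12 nuclei. By lowest, median and highest CKO library astrocytes lay above the amacrine cells. The other 8 labels had 121 to 752 CPM in the control, with cones lowest.

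Col25a1 had the most UMIs of the collagen genes in GABAergic amacrine, glycinergic amacrine and ganglion cells, and Col23a1 in cone bipolar and immune cells. Müller glia held Col9a1, at 1481 CPM in the control and 1132, 1247 and 1638 CPM in the CKO, and Col2a1, at 361 CPM and 261, 431 and 526 CPM, the fibril-associated and the fibrillar collagen that also make up the fibrils of the vitreous. GABAergic amacrine cells held the transmembrane Col25a1, at 953 CPM and 653, 867 and 1094 CPM. In all 3 cases the control lay inside the CKO range. Horizontal cells held Col27a1, at 358 CPM and 127, 235 and 466 CPM. Rods held Col26a1, at 33.9 CPM and 36.4, 49.3 and 65.3 CPM, and Col20a1, at 30.2 CPM and 13.4, 28.6 and 45.9 CPM. Cones likewise held Col20a1, at 25.8 CPM and 13.8, 24.2 and 43.1 CPM. Rod bipolar cells were the highest retinal label for the Col4a1 and Col4a2 pair, with Col4a1 at 177 CPM and 133, 169 and 202 CPM and Col4a2 at 107 CPM and 89.1, 104 and 138 CPM. Both chains of this pair overlapped between the groups. Retinal ganglion cells held Col25a1, at 105 CPM and 0, 89.7 and 160 CPM, the lowest value from CKO 4. Glycinergic amacrine cells held Col25a1, at 236 CPM and 115, 161 and 225 CPM, so that the control lay above every CKO library. They were the highest label for Col12a1, at 80.3 CPM and 97.8, 131 and 236 CPM, where the control lay below every one. The share of all genes with the control outside the CKO range was not taken. Here and below, such a position is therefore no sign of anything particular to collagen genes. Of the 44 genes, 13 had a highest label whose lowest CKO library exceeded every CKO library of the next label: Col6a1, Col6a4, Col6a5, Col11a1 and Col25a1 in GABAergic amacrine cells, Col2a1, Col9a1 and Col23a1 in Müller glia, Col5a3 and Col26a1 in rods, Col8a1 in astrocytes, Col12a1 in glycinergic amacrine cells and Col27a1 in horizontal cells.

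The retinal comparison of 1 control with up to 11 CKO libraries was fitted in each label with batch and kit version as terms, so that the genotype effect rested on batch 1, the control against CKO 1 to 3. Of 244 pairs of collagen gene and label that passed the filter, edgeR's quasi-likelihood test called 0 at an adjusted p below 0.05 and 27 had an unadjusted p below 0.05, while DESeq2 called 3. Over all genes and labels edgeR called 0.0166%, 4.92% had an unadjusted p below 0.05 and DESeq2 called 0.114%. By label edgeR called 0.0622% of all genes in cones, 0.0385% in Müller glia, 0.0363% in glycinergic amacrine cells, 0.0171% in rod bipolar cells, 0.0141% in rods, 0.00676% in GABAergic amacrine cells and 0% in the other 5. With batch 1 alone 3 collagen pairs were called, against 0.0704% of all, and with no filter 6 were, against 0.299%: Col6a3 in 3 labels, Col23a1 in Müller glia and cone bipolar cells and Col11a1 in glycinergic amacrine cells. With a single control library, a difference between genotypes and a trait of that library cannot be told apart.

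Col23a1, a transmembrane collagen, came nearest to a call and stood on opposite sides in 2 cell types. In Müller glia it was at 1108 CPM in the control and 570, 755 and 870 CPM in the CKO. The control exceeded all 10 CKO libraries, and in batch 1 the CKO libraries were at 570, 648 and 675 CPM. The log2 fold change was -0.89 (SE 0.16), and edgeR's quasi-likelihood test with Benjamini-Hochberg adjustment gave an adjusted p of 0.0544, with all 10 CKO libraries below the control. By DESeq2 it was called (adjusted p 0.00219), and by edgeR in batch 1 alone (adjusted p 0.0489). In cone bipolar cells it was at 112 CPM in the control and 149, 217 and 373 CPM in the CKO. Here all 10 CKO libraries exceeded the control. The log2 fold change was 1.21 (SE 0.25), with an adjusted p of 0.293 by edgeR's quasi-likelihood test with Benjamini-Hochberg adjustment, all 10 CKO libraries being above the control, and an adjusted p of 0.00234 by DESeq2.

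Col11a1 in glycinergic amacrine cells was at 56.6 CPM in the control and 18.7, 26.2 and 35.5 CPM in the CKO. All 10 CKO libraries were below the control, and edgeR's quasi-likelihood test with Benjamini-Hochberg adjustment gave a log2 fold change of -1.17 (SE 0.29) and an adjusted p of 0.329, 0.0469 in batch 1 alone and 0.000625 with no filter. Col4a1 in rods was at 1.63 CPM in the control and 0.352, 11.5 and 21.8 CPM in the CKO. CKO 7 lay below the control and the other 9 above it, and DESeq2 called it (log2 fold change 3.08, adjusted p 0.0435) where edgeR did not. Col1a2, a type I chain, had 0 UMIs in the 12 control astrocytes and 17.9, 215 and 808 CPM in 8 CKO libraries, and was called in batch 1 alone. The related genes gave 0 edgeR calls in 317 pairs, with 49 at an unadjusted p below 0.05, against 4.92% of all, and 3 called by DESeq2, against 0.114%: Loxl2 in cone bipolar cells and Müller glia and Pcolce in rods. With no filter edgeR called 12 of 603, against 0.299%: Loxl2 in cone bipolar cells and Müller glia, P4ha2 in cone bipolar and rod bipolar cells, Pcolce in cone bipolar, GABAergic amacrine and glycinergic amacrine cells, Müller glia and rods, Plod1 in cone bipolar cells, and Plod2 in Müller glia and rod bipolar cells.

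Col6a3, a long type VI chain, was singled out after its values had been seen, because it separated single libraries and not the groups. Over all nuclei it was at 0.871 CPM in the control, 7.27 CPM in CKO 2, 27.1 CPM in CKO 3 and 12.9 CPM in CKO 11, and at most 0.797 CPM in each other CKO library. In rods it had 19, 112 and 121 UMIs in those 3 libraries and 0 in all others, the control included. The 3 libraries span batches 1 and 3 and both kit versions. Without the filter on low counts edgeR called Col6a3 in cone bipolar, GABAergic amacrine and glycinergic amacrine cells. The fibroblast list over all nuclei was at 41.7 CPM in the control, at 47.3, 41.3 and 29.5 CPM in CKO 2, 3 and 11, at 33.8 to 52.8 CPM in 7 of the other 8 CKO libraries and at 597 CPM in CKO 4.

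**Figure D3:**
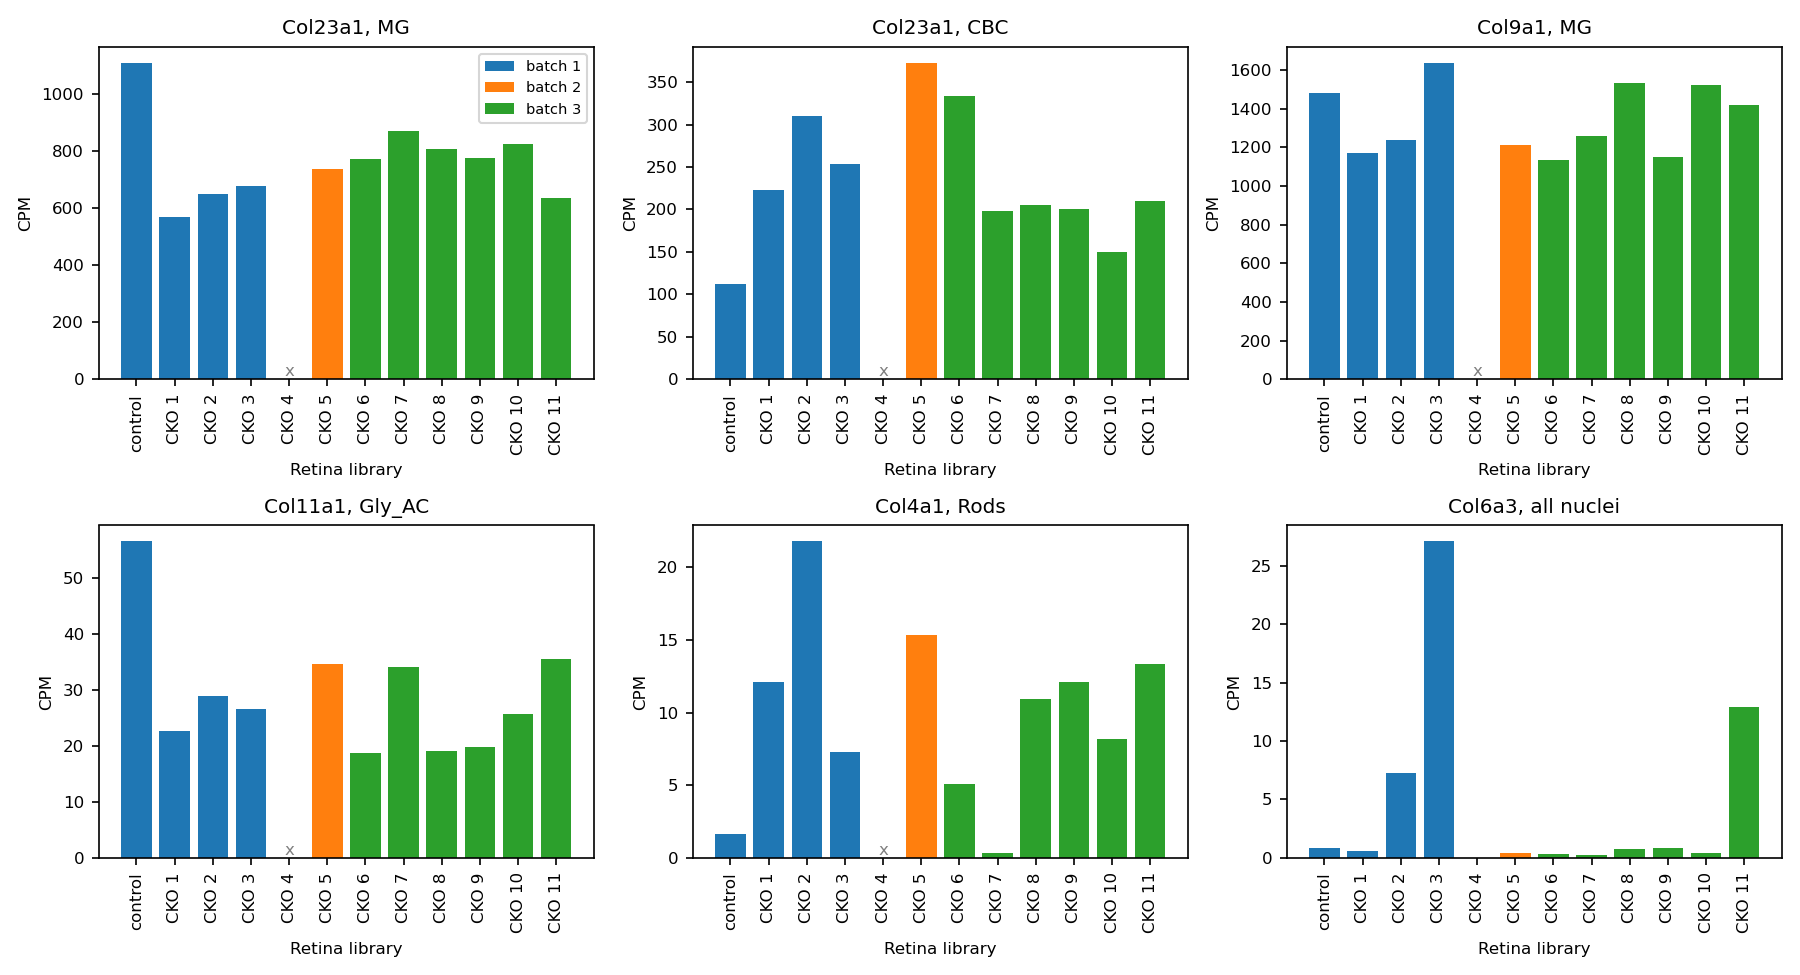
CPM of 6 collagen genes and cell types in each retinal library, colored by batch; bars start at 0 and x marks CKO 4 where it was not measured. Col23a1 of the control is highest in Müller glia (MG) and lowest in cone bipolar cells (CBC), Col11a1 is highest in control glycinergic amacrine cells (Gly_AC), and Col6a3 is high in CKO 2, 3 and 11.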

How the data were processed

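The authors made the deposited UMI counts with PIPseeker, removed background with CellBender and doublets with SOLO, curated the nuclei by hand, and named the cell types with Seurat; the methods give the index as GRCm39 and the labels list mm10. The gene symbols, barcodes, library names, batch and kit numbers and cell type labels were used as deposited by the authors, and the plot coordinates were not used. UMIs were summed per label and library and divided by the label's total to give CPM, a library entering a label with at least 10 nuclei. The retinal fits used edgeR 4.0.16 (quasi-likelihood, TMM scaling, filterByExpr, batch and kit as covariates) over all genes, with DESeq2 1.42.0 as the alternative, in R 4.3.3. The brain ratios used Python 3.11.15, numpy 2.4.6, pandas 2.3.3 and scipy 1.17.1, and the figures matplotlib 3.10.9. Each method was first run on simulated counts with known answers. The collagen genes and all lists were chosen with earlier results of these data known. Genes were named when they were type IV chains, past 2-fold in a brain label, highest in a vascular or fibroblast-like label, called in any retinal fit, or among the 3 collagen genes with most UMIs in a retinal label, and related genes when past 2-fold in brain ECs or called in a retinal fit; a few others are given beside these for comparison.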

Additional observations from a re-analysis of the deposited data

Results flagged for a closer look

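A library was marked when it lay apart from the rest of its group, which happens by chance in about 1 of 20 groups chosen without regard to their values. The groups were the 3 collagen genes with most UMIs in each retinal label and the pairs called in any retinal fit. Of 32 groups tested 3 had such a library. Both Col6a3 groups below entered only through calls with no filter, so the rate of 1 in 20 does not hold for them. Col6a3 in retinal cone bipolar cells was at 17.1 CPM in CKO 3, Col6a3 in GABAergic amacrine cells was at 37.6 CPM in CKO 3, and Col20a1 in cones was at 43.1 CPM in CKO 2. Why these libraries stood apart was not tested.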

How the results depend on the processing

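In the retina 0 collagen genes were called, and 3 with batch 1 only, 3 by DESeq2, 6 with no filter on low counts, and 0 to 1 without each CKO library in turn; of 638 fold changes for 38 named results 14 were called under the alternative alone and 15 changed sign, none of these called. In the brain the count past 2-fold was 31 over all labels, and 70 with a minimum of 20 UMIs, 17 with a minimum of 100 and 69 at 1.5-fold. In ECs it was 5, and 8, 3 and 13 under those 3 settings, 2 in nuclei free of mural markers, 1 where Rgs5 was allowed, and 1 there without fibroblast UMIs as well. In pericytes it was 1, and 2 with TMM, 3 with 20 UMIs and 2 at 1.5-fold; nuclei with at least 1000 UMIs gave no value. In vSMCs it was 3, and 5, 1 and 10 under the settings of 20 UMIs, 100 UMIs and 1.5-fold. In the label glia it was 11, and 6 in nuclei with at least 1000 UMIs, 0 in Slc47a1 nuclei, 1 in those with neither Slc6a13 nor Slc47a1 and 4 without EC and mural markers. In the neuron labels summed it was 7, and 6 without Glut_5 and Glut_20. In CP_8 it was 1, and 6 in nuclei with at least 1000 UMIs. The counts with a minimum of 20 or 100 UMIs or at 1.5-fold stand without the share of all genes at that setting. They show how the count moves with the setting and nothing particular to collagen genes. The median log2 ratio in ECs was -0.19, and 0.43 without fibroblast markers; it was 1.59 without mural markers, 0.26 where Rgs5 was allowed and 0.73 there without fibroblast markers, over only 2, 5 and 3 genes and beside -0.30, 0.19 and 0.17 over all genes. Of 325 ratios of named brain genes 224 kept their size, 98 moved and 3, of genes past 2-fold, changed sign in the Slc47a1 nuclei: Col4a1 at 0.0712, Col4a2 at 0.10 and Col4a5 at 0.18. Sign also changed for genes within 2-fold in 32 of the 98 and 17 of the 224. Col3a1 in ECs without fibroblast markers at 0.96 and Col4a2 in ECs without mural markers at 1.10 were among them. The neuron alternative, the subsets of the label glia and those of ECs that allow Rgs5 were added after seeing the data. No paired analysis was possible because the groups share only the replicate number 1. Each brain group had 1 library and the retina 1 control, so library and genotype cannot be told apart, and intervals cover counting error only.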

Other observations

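The minor type IV chains were measured in several cell types outside the vessels. In the choroid plexus label CP_8, Col4a3 was at 237 CPM in the control brain and 222 CPM in the CKO brain, Col4a4 at 319 and 261 CPM, and Col4a5 at 314 and 288 CPM, so that all 3 chains of that network were present with ratios short of 2-fold, though among nuclei with at least 1000 UMIs Col4a4 and Col4a5 passed 2-fold lower. Brain astrocytes had Col4a5 at 92.5 and 133 CPM. In retinal Müller glia Col4a5 was at 141 CPM in the control and 113, 178 and 232 CPM in the CKO (lowest, median and highest library), and Col4a6 at 51.0 CPM and 42.9, 64.7 and 113 CPM, the control lying inside the CKO range for both. Col4a3 in the same cells was at 16.5 CPM in the control and 2.15, 4.96 and 10.7 CPM in 10 CKO libraries, all below the control, with an adjusted p of 0.247 by edgeR's quasi-likelihood test with Benjamini-Hochberg adjustment. Rods had Col4a3 at 14.2 CPM and 7.88, 11.7 and 15.3 CPM, and Col4a4 at 10.5 CPM and 11.6, 15.8 and 20.3 CPM, the latter with the control below all CKO libraries and not called by edgeR. The share of all genes with the control outside the CKO range was not taken.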
